A study of Rattus norvegicus with 48 samples.

Results

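Levels of the oligodendrocyte miRNAs miR-219 and miR-338 were examined in small RNA-Seq libraries of the rat amygdala and ventral striatum. The members were chosen by name from the normalized table and were 7 of its 1063 names. They comprised 4 of 612 mature names (miR-219a-5p, miR-219a-2-3p, miR-338-3p and miR-338-5p) and 3 of 451 precursor names (mir-219a-2, mir-219b and mir-338). The names carry the prefix of rat, which is left out here. All 7 were above 0 in all 48 libraries.

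All rats were Long Evans rats killed on postnatal day 42. Their dams had received ethanol or saline by intraperitoneal injection on a single day of gestation. After weaning the offspring were kept either with littermates of their own sex (non-enriched) or with unfamiliar rats of the same age and sex from untreated dams (socially-enriched). Each library was made from a pool of RNA of 3 rats, with 3 pools for each of the 16 combinations of region, sex, prenatal exposure and housing, so that p-values measure the spread between pools. Per the study's methods the amygdala and the ventral striatum were taken from the same rats, so libraries of both regions are not from separate animals. Which pool of one region matches which pool of the other is not given in the sources used here, and the tests between regions treated all libraries as independent. Saline dams were injected as well, so no group was free of the injection. Both regions were dissected whole, and in such tissue fewer cells of a type and less RNA per cell cannot be told apart.

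A miRNA hairpin is cut into a pair of short strands named for its 5′ arm (5p) and 3′ arm (3p), and either can guide the silencing of messenger RNAs through its seed. Oligodendrocytes form the myelin of the central nervous system. miR-219 and miR-338 rise as oligodendrocyte precursors leave the cell cycle and differentiate, and they repress transcripts that keep the precursors proliferating, among them that of the receptor Pdgfra and of the transcription factor Sox6.

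The sequences are shown because 3 of the 4 mature members are covered by a miRNA on the opposite strand and because a seed decides which family a miRNA belongs to. All 4 mature members were matched to rat sequences from RefSeq (build GRCr8, which is newer than the build of the authors' alignment). Capitals mark the seed, bases 2 to 8 from the 5′ end.
miR-219a-5p: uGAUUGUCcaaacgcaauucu
miR-219a-2-3p: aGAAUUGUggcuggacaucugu
miR-219b: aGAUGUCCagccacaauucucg
miR-338-3p: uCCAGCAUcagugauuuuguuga
miR-338-5p: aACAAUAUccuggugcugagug
miR-3065-3p: uCAGCACCaggauauuguugggga
miR-3065-5p: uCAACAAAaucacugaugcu

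The 4 mature members were 21 to 23 bases long, and none shared its seed with another of the 693 mature rat names in the reference. In GRCr8, miR-219a-2-3p lies at chr3:33516517-33516538 on the minus strand, inside the hairpin gene Mir219-2, and miR-219b lies on the plus strand with 20 bases of overlap. miR-338-3p lies at chr10:105796345-105796367 and miR-338-5p at chr10:105796381-105796402, both on the minus strand in Mir338, and the plus strand carries miR-3065-5p, which overlaps 20 bases of miR-338-3p, and miR-3065-3p, which overlaps 19 bases of miR-338-5p. miR-3065-5p was not analysed here. Mir219-2 falls within the span of the protein-coding gene Cercam and of a long non-coding RNA gene, and Mir338 within that of Aatk, which codes for a kinase of nervous tissue. The sequence of miR-219a-5p occurs in a pair of hairpins, Mir219-2 and Mir219a1 on chromosome 20, so its reads do not tell which locus was transcribed.

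The precursor values were counted from the same reads as the mature ones. The level of mir-219b was 13.53% of that of mir-219a-2 in every library (coefficient of variation 0.00818%), so this name carried no measurement of its own. Reads counted for mir-338 were 1.00 to 1.01 times those counted for both of its arms together, while reads of mir-219a-2 plus mir-219b were 1.23 to 1.40 times those of miR-219a-2-3p, miR-219b and miR-219a-5p together. The antisense precursor mir-3065 was under 0.001 RPM in 35 libraries and above the worth of 1 read in 13. How the quantification divided reads between such names, and whether it used strand, is not given in the sources used here. The mature names were therefore used for most comparisons.

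Levels are given in RPM, which are reads scaled to one common total: the mature names of a library sum to 1000000 and the precursor names to another 1000000. Over the 48 libraries the lowest, median and highest levels of miR-338-3p were 3950, 7370 and 13926 RPM, and by its mean it ranked 27 of 612 mature names. miR-219a-2-3p had 616, 1233 and 2248 RPM (rank 73). These 3p strands were the abundant products of their hairpins, since miR-338-5p had 165, 286 and 582 RPM (rank 129) and miR-219a-5p had 29.5, 68.1 and 189 RPM (rank 194). The ranges of miR-338-3p, miR-219a-2-3p and miR-338-5p did not overlap, whereas those of miR-338-5p and miR-219a-5p did. On the precursor scale the ranges were 3566 to 12477 RPM for mir-338, 701 to 2370 RPM for mir-219a-2 and 94.8 to 321 RPM for mir-219b, and these did not overlap either.

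All members were above a floor of 3 reads in every library. The libraries held 363141 to 1370413 mature reads, with 363141 to 1287699 in the amygdala and 739464 to 1370413 in the ventral striatum, and a floor of 3 reads was equal to 2.19 to 8.26 RPM. The smallest number of reads behind any member was 11, for miR-219a-5p, and the smallest for miR-338-3p was 1698. Which libraries were sequenced together is not in the labels, so differences between sequencing runs and between groups cannot be told apart.

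**Figure D1:**
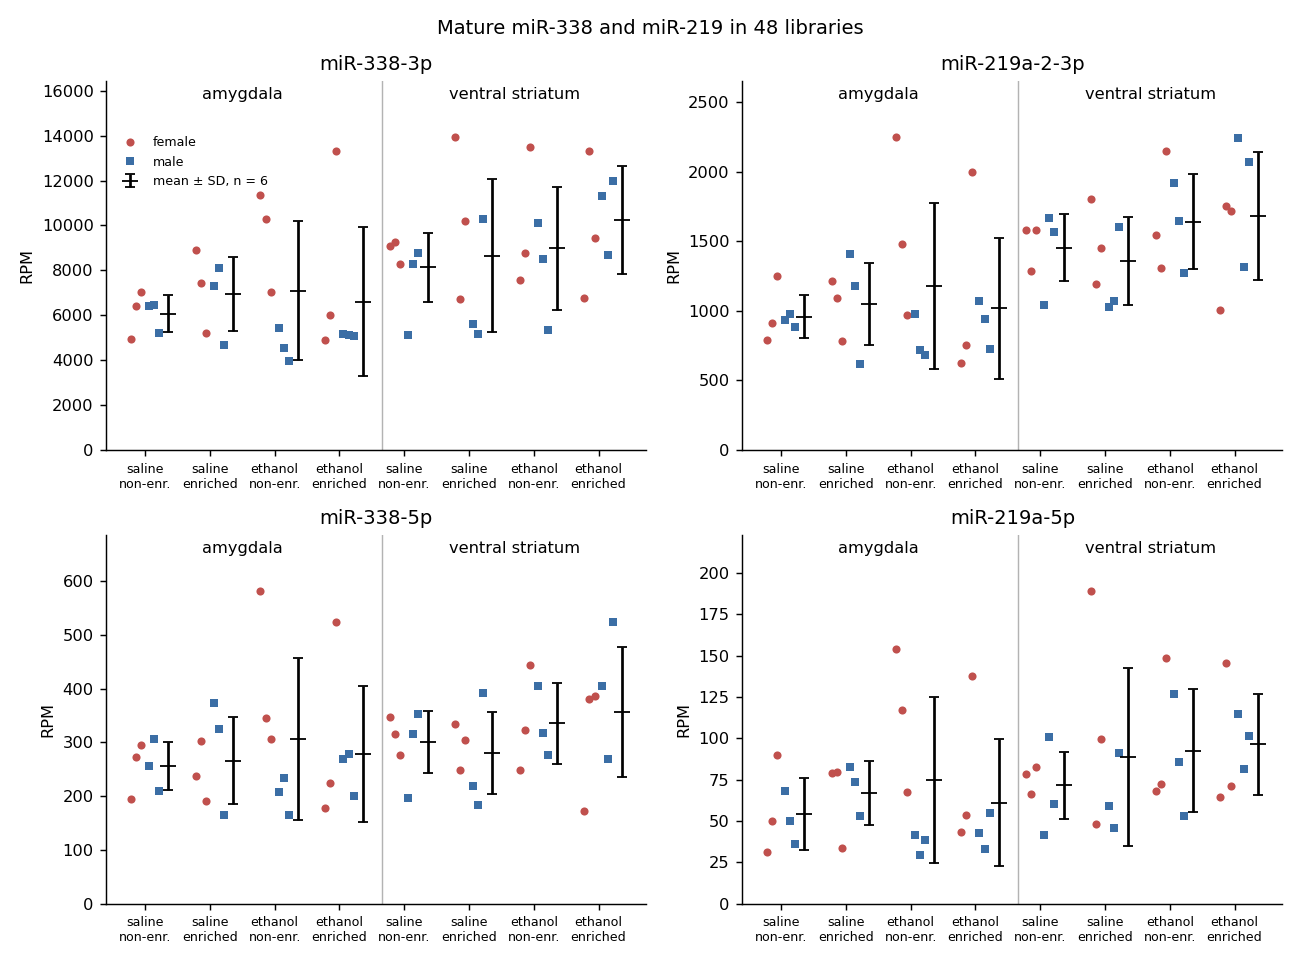
Level of each mature member (RPM, linear axis) in the 48 libraries, by region and treatment group, with a point for each female or male pool and bars for the mean ± SD of 6 libraries. miR-338-3p lies between 3950 and 13926 RPM, above the other mature members in every library.

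The table listed miR-219a-5p on 2 lines, which were summed. The first line had 2.69 to 59.4 RPM and held 9.09% to 54.5% of the sum (median 37.5%). Over the 48 libraries it followed the precursor mir-219a-1 (r = 0.94), which belongs to the other locus, more closely than mir-219a-2 (r = 0.69). The second line had 18.9 to 132 RPM and correlated alike with mir-219a-1 (r = 0.78) and mir-219a-2 (r = 0.77). The precursors are counted from the same reads, so these values describe how the reads were assigned. The opposite strand of the other locus, miR-219a-1-3p, was above 0 in 16 libraries only and reached 3.39 RPM.

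The first comparison asked whether the members differed between the regions. Of the 7 members, 6 were higher in the ventral striatum than in the amygdala at an adjusted p under 0.05 (limma on log2(RPM + 1), 24 against 24 libraries, averaged over sex and treatment), and 3 of these were mature names. Over all 915 names tested, 21.5% were higher by this rule, 8.74% were lower and 30.3% were called in either direction. The median log2 difference was 0.49 for the members and 0.08 for all names. As mir-219b is a fixed share of mir-219a-2 and mir-338 repeats its arms, the 7 names are not 7 separate measurements. With consecutive library numbers as a block 6 members passed as well. Ventral striatum libraries were also deeper, with a median of 1031167 mature reads against 855220 in the amygdala, and within both regions every member correlated positively with depth (r from 0.08 to 0.49). The part of depth in the region difference was not tested.

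miR-219a-2-3p showed the clearest difference. Its lowest, median and highest levels were 616, 956 and 2248 RPM in the amygdala and 1006, 1574 and 2245 RPM in the ventral striatum. All 24 ventral striatum libraries were above the amygdala median, while 2 of the 24 amygdala libraries were above the ventral striatum median. The means were 1051 ± 405 and 1535 ± 353 RPM (SD, n = 24), and the log2 difference was 0.59 (SE 0.12, adjusted p = 3.0e-04 by limma). The precursor mir-219a-2 differed by 0.53 (adjusted p = 0.00112 by limma).

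miR-338-3p, the most abundant member, had 3950, 6203 and 13317 RPM in the amygdala and 5133, 8783 and 13926 RPM in the ventral striatum. Here 20 of the 24 ventral striatum libraries were above the amygdala median, so the overlap was larger than for miR-219a-2-3p. The means were 6680 ± 2312 and 9008 ± 2554 RPM (SD, n = 24), a log2 difference of 0.44 (SE 0.12, adjusted p = 0.0036 by limma). The precursor mir-338 gave 0.42 (adjusted p = 0.0062 by limma). The other strand of the same hairpin, miR-338-5p, had means of 277 ± 103 and 318 ± 85.8 RPM (SD, n = 24), and its log2 difference of 0.23 (SE 0.13) did not pass (adjusted p = 0.185 by limma).

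miR-219a-5p had 29.5, 53.5 and 154 RPM in the amygdala and 41.5, 79.9 and 189 RPM in the ventral striatum, with means of 64.2 ± 33.4 and 87.3 ± 36.3 RPM (SD, n = 24). Its log2 difference of 0.49 (SE 0.17) passed with an adjusted p of 0.0266 by limma. This call was the least certain of the 6, since the adjusted p was 0.0703 after rescaling by median-ratio size factors and 0.0799 on unlogged RPM. With the 6 saline non-enriched libraries of each region alone, miR-219a-2-3p was the only member that passed (adjusted p = 0.0346 by limma).

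**Figure D2:**
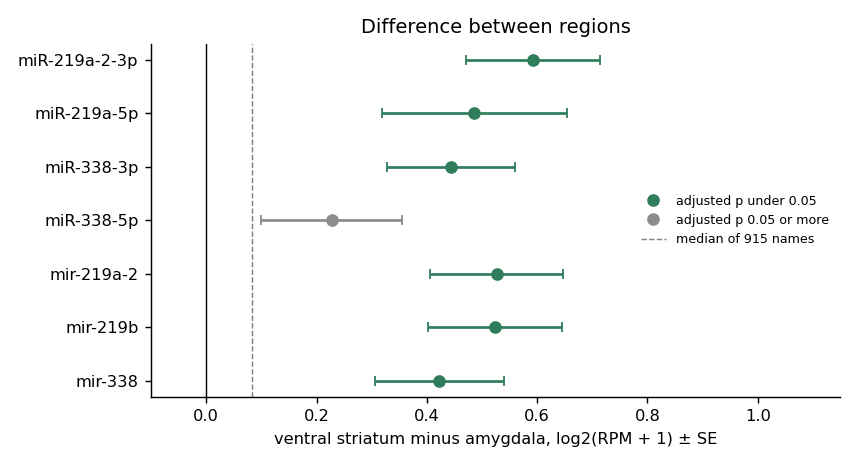
Difference between the regions (ventral striatum minus amygdala) in log2(RPM + 1) for the 7 members, with points for the limma estimate from 48 libraries, bars for its SE and a dashed line at the median of all 915 names (0.08). All members lie right of the line, from 0.23 for miR-338-5p to 0.59 for miR-219a-2-3p.

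Of 5 other names from these loci and their antisense strands, 3 were higher in the ventral striatum, beside 21.5% of all 915 names tested. Whether the antisense names were counted apart from the members is not known, since use of strand is not given in the sources used here. miR-219b, the antisense neighbour of miR-219a-2-3p, had means of 40.9 ± 18.6 and 53.5 ± 20.7 RPM (SD, n = 24) and was higher in the ventral striatum by 0.39 on the log2 scale (adjusted p = 0.0407 by limma). The precursor of the other miR-219 locus, mir-219a-1, was higher by 0.53 (adjusted p = 0.0050 by limma). Precursors are counted from the same reads as mature names, and miR-219a-1-3p reached only 3.39 RPM. The value of mir-219a-1 is thus not separate from that of miR-219a-5p, whose reads do not tell which locus was transcribed. miR-3065-3p, antisense to miR-338-5p, was higher by 0.69 (adjusted p = 0.0282 by limma), with means of 12.7 ± 6.84 and 17.98 ± 5.40 RPM (SD, n = 24) and 0 RPM in 1 library. miR-219a-1-3p and mir-3065 did not pass, with log2 differences of −0.01 and 0.41.

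Ratios of members within a library do not depend on how the library was scaled. The ratio of miR-338-3p to miR-338-5p had a geometric mean of 24.3 over amygdala libraries (range 18.4 to 37.5) and 28.2 over ventral striatum libraries (range 19.3 to 41.8), which is a log2 difference of 0.22 (two-sided permutation test, n = 24 and 24, p = 0.00296, adjusted p = 0.00888 over 3 ratios). Both strands come from one hairpin, and the 3p strand took a larger part of its reads in the ventral striatum. Across the treatment groups the geometric mean was 23.4 to 26.5 in the amygdala and 26.3 to 29.9 in the ventral striatum, so the highest amygdala group, the saline socially-enriched one, was above the lowest ventral striatum group. A ratio of reads is not a ratio of molecules, since strands differ in how well they are ligated and amplified.

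The ratio of miR-219a-2-3p to miR-219a-5p was 17.2 for amygdala and 18.5 for ventral striatum libraries (permutation p = 0.366, adjusted p = 0.549). That of miR-338-3p to miR-219a-5p was 111 and 107 (permutation p = 0.55, adjusted p = 0.55). Neither ratio differed beyond its spread between libraries.

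Prenatal ethanol and social enrichment were the treatments of the study, and 4 comparisons were made in each region: the ethanol effect in non-enriched and in enriched rats, and the enrichment effect in saline and in ethanol rats. In none of the 8 comparisons did any of the 7 members reach an adjusted p under 0.05 by limma, and 0 of 7 had an unadjusted p under 0.05. Over all names 0% passed the adjusted threshold in each comparison. The unadjusted share of all 910 names in the amygdala was 4.51% for ethanol in non-enriched rats, 3.85% for ethanol in enriched rats, and 2.64% for enrichment in saline as well as in ethanol rats. Of the 933 names tested in the ventral striatum it was 2.04%, 2.25%, 3.86% and 1.82% in the same order. Averaged over the other treatment, 0 of 7 members had an unadjusted p under 0.05 for ethanol (4.4% of names in the amygdala, 3.22% in the ventral striatum) or for enrichment (3.08% and 4.39%).

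In the amygdala miR-338-3p had its lowest, median and highest levels at 4947, 6413 and 7049 RPM in saline non-enriched libraries and at 3950, 6225 and 11368 RPM in ethanol non-enriched libraries. In socially-enriched rats it had 4674, 7370 and 8894 RPM after saline and 4920, 5151 and 13317 RPM after ethanol. The ethanol libraries thus lay both below and above those of the saline groups. The ethanol effect was 0.12 on the log2 scale in non-enriched and −0.14 in enriched rats, and the enrichment effect was 0.17 after saline and −0.10 after ethanol (SE 0.22 for each, n = 6 and 6, limma).

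Ventral striatum levels of miR-338-3p were 5133, 8535 and 9286 RPM in saline non-enriched, 5353, 8652 and 13516 RPM in ethanol non-enriched, 5183, 8462 and 13926 RPM in saline enriched and 6765, 10381 and 13303 RPM in ethanol enriched libraries. Its ethanol effects were 0.11 and 0.30 and its enrichment effects 0.02 and 0.21 (log2, SE 0.24 for each, limma). The groups overlapped in all 4 comparisons.

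For miR-219a-2-3p the groups overlapped as well. In the amygdala it had 794, 923 and 1250 RPM in saline non-enriched, 682, 974 and 2248 RPM in ethanol non-enriched, 616, 1137 and 1406 RPM in saline enriched and 622, 849 and 1996 RPM in ethanol enriched libraries. Its effects there were 0.18 and −0.11 for ethanol and 0.09 and −0.19 for enrichment (log2, SE 0.28 for each, limma). Its ventral striatum effects were 0.17 and 0.29 for ethanol and −0.11 and 0.01 for enrichment (log2, SE 0.20 for each, limma).

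The 5p strands did not pass either, and miR-219a-5p had the widest errors of the mature members. In the order ethanol in non-enriched, ethanol in enriched, enrichment in saline and enrichment in ethanol rats, miR-338-5p had 0.15, 0.03, 0.01 and −0.11 in the amygdala (SE 0.26) and 0.16, 0.31, −0.12 and 0.03 in the ventral striatum (SE 0.24, log2, limma). For miR-219a-5p the effects were 0.29, −0.24, 0.32 and −0.20 in the amygdala (SE 0.33) and 0.32, 0.24, 0.18 and 0.10 in the ventral striatum (SE 0.34, log2, limma). Exact permutation tests on mean RPM (two-sided, 6 against 6 libraries) gave p-values of 0.184 to 0.961 over the 56 tests of 7 members, where the smallest possible p is 0.00216, and the groups overlapped in each test. Comparisons that share a group are not independent.

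**Figure D3:**
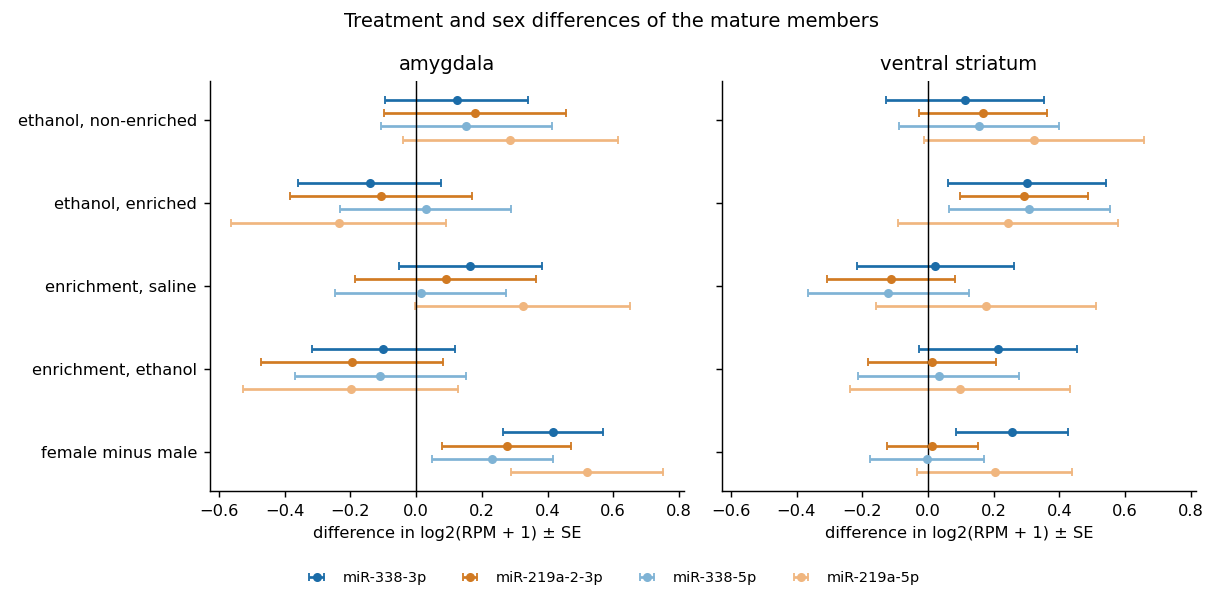
Treatment and sex differences of the 4 mature members in log2(RPM + 1), with points for the limma estimate and bars for its SE, in the amygdala and the ventral striatum. Treatment effects lie between −0.24 and 0.32, and the largest value is the female minus male difference of miR-219a-5p in the amygdala, 0.52.

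The spread between ethanol pools of the amygdala was wide. The coefficient of variation of miR-219a-2-3p was 16.2% in saline non-enriched, 28.1% in saline enriched, 50.6% in ethanol non-enriched and 49.6% in ethanol enriched libraries. For miR-338-3p the values were 13.5%, 23.7%, 43.4% and 50.1%. Ventral striatum coefficients of miR-219a-2-3p were 16.5%, 23.1%, 20.9% and 27.3% in the same order. Whether these spreads differ was not tested, and 3 ethanol libraries from females held the highest amygdala values of miR-338-3p.

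Sex was the other factor of the design. In the amygdala 3 of the 7 members (miR-338-3p, mir-338 and miR-219a-5p) were higher in females at an unadjusted p under 0.05, against 1.76% of all names higher and 4.18% in either direction. The adjusted p was 0.988 for each, so none passed. As mir-338 repeats the reads of its arms, these 3 names are not 3 separate measurements. miR-338-3p had 4920, 7043 and 13317 RPM in females and 3950, 5195 and 8088 RPM in males, with means of 7740 ± 2697 and 5620 ± 1206 RPM (SD, n = 12), and its log2 difference was 0.42 (SE 0.15, limma). miR-219a-5p differed by 0.52 (SE 0.23, limma). In the ventral striatum 0 of 7 members had an unadjusted p under 0.05 (2.89% of all names), and miR-338-3p differed by 0.26 (SE 0.17, limma).

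The female amygdala libraries with the highest levels of miR-338-3p came from ethanol-exposed rats. In ethanol non-enriched amygdala libraries miR-338-3p had 11368, 10281 and 7037 RPM in the females and 5412, 4560 and 3950 RPM in the males, so that every female pool was above every male pool. In the saline non-enriched libraries the females had 4947, 6409 and 7049 RPM and the males 6416, 6438 and 5205 RPM, which overlapped. The ethanol effect in non-enriched rats was larger in females than in males by 1.01 on the log2 scale (SE 0.43), with an unadjusted p of 0.0326 in the limma fit and an adjusted p of 1. The same difference for miR-219a-5p was 1.47 (SE 0.65) and for mir-338 1.01 (SE 0.44), and 2.86% of all names passed at an unadjusted p under 0.05. In 147 tests it was asked whether an effect on a member differed between regions, sexes or levels of the other treatment. Of these, 0 had an adjusted p under 0.05, and the smallest adjusted p was 0.815 (limma).

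In ethanol enriched amygdala libraries miR-338-3p had 4920, 5996 and 13317 RPM in the females and 5185, 5116 and 5088 RPM in the males. The highest value of the region thus came from a single female pool, replicate 3. In that pool miR-219a-2-3p was also high, at 1996 RPM against 622 and 757 RPM in the other female pools. In ethanol non-enriched females miR-219a-2-3p had 2248, 1482 and 970 RPM, and these pools ranked the same way for miR-338-3p.

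The amygdala libraries differed in miRNAs of the choroid plexus, the tissue that makes cerebrospinal fluid and lies next to the amygdala in the lateral ventricle. The sum of its markers miR-204-5p and miR-211-5p was 3827 to 6987 RPM in the ventral striatum. In the amygdala it was 3120 to 5097 RPM in 11 libraries and 11613 to 122541 RPM in 13. The 3 amygdala libraries with the highest miR-338-3p, ethanol non-enriched females 1 and 2 and ethanol enriched female 3, had 37334, 122541 and 36547 RPM of these markers and belonged to the 13. In the 13 libraries miR-338-3p had 3950, 5205 and 13317 RPM and in the 11 it had 4920, 6409 and 8088 RPM, so the rich libraries held both the highest and the lowest values.

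**Figure D4:**
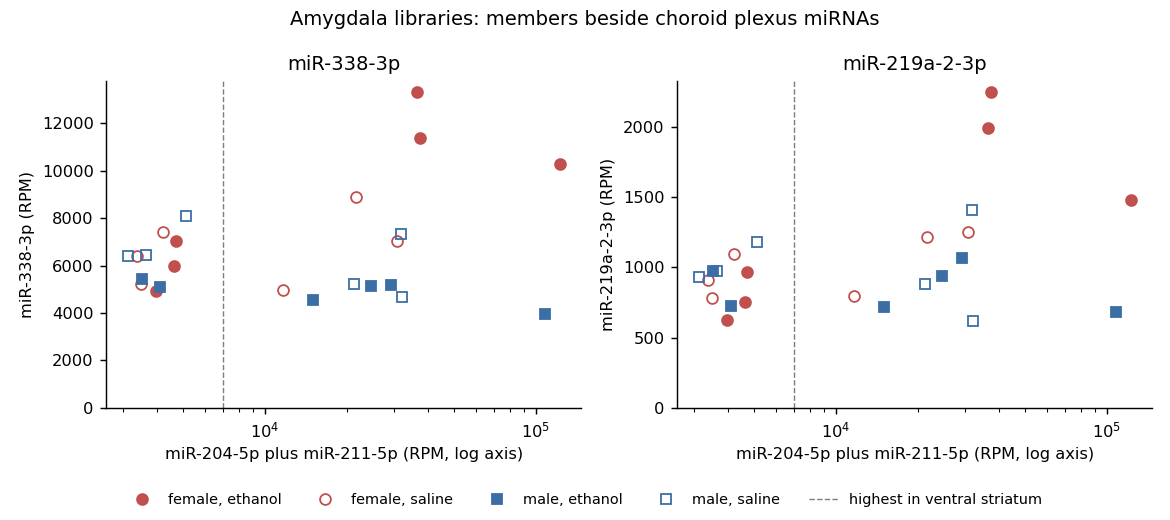
miR-338-3p (left) and miR-219a-2-3p (right) in RPM against the sum of miR-204-5p and miR-211-5p (RPM, log axis) in the 24 amygdala libraries, with the dashed line at the highest ventral striatum library (6987 RPM). Of the 13 libraries right of the line, 3 from ethanol females hold the highest miR-338-3p and others hold the lowest.

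Without the 13 libraries, as tried after the values were seen, the difference between the sexes was 0.02 (SE 0.14) for miR-338-3p and −0.05 (SE 0.32) for miR-219a-5p (log2, limma). The 3 highest female libraries were among those left out, and 6 female and 5 male libraries in 8 groups remained, with 3 residual degrees of freedom, so these values are given as descriptions. The region difference was as large without them, with 0.72 for miR-219a-2-3p (adjusted p = 5.46e-04 by limma) and 0.48 for miR-338-3p (adjusted p = 0.0298 by limma), and 5 of 7 members passed, miR-219a-5p being lost (adjusted p = 0.0818). Within the 13 and the 11 libraries the correlation of miR-338-3p with the markers was 0.25 and 0.43, and that of miR-219a-2-3p was 0.23 and 0.17, given as descriptions.

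The members varied together between pools of one group. As deviations from the means of the 16 groups, miR-219a-2-3p and miR-338-3p, which come from different chromosomes, had r = 0.93 in the amygdala (rho 0.92, and r = 0.89 without the 2 libraries farthest from the median) and r = 0.88 in the ventral striatum (rho 0.88, and r = 0.88 without 2). The permutation p was 1e-05 in each, the smallest that 100000 resamples can give, with an adjusted p of 1.12e-05 over 18 pairs (24 libraries each). Deviations within a group of 3 are tied to each other, so permuting all 24 freely tends to give p-values that are too small. The same holds for the other permutation tests of deviations. All 6 pairs of mature members passed in both regions, with r from 0.71 to 0.93 in the amygdala and from 0.68 to 0.90 in the ventral striatum. The lowest value in each region belonged to the pair of 5p strands, which had the fewest reads. The members share libraries and scaling, and after median-ratio rescaling the leading pair had r = 0.95 and r = 0.88.

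**Figure D5:**
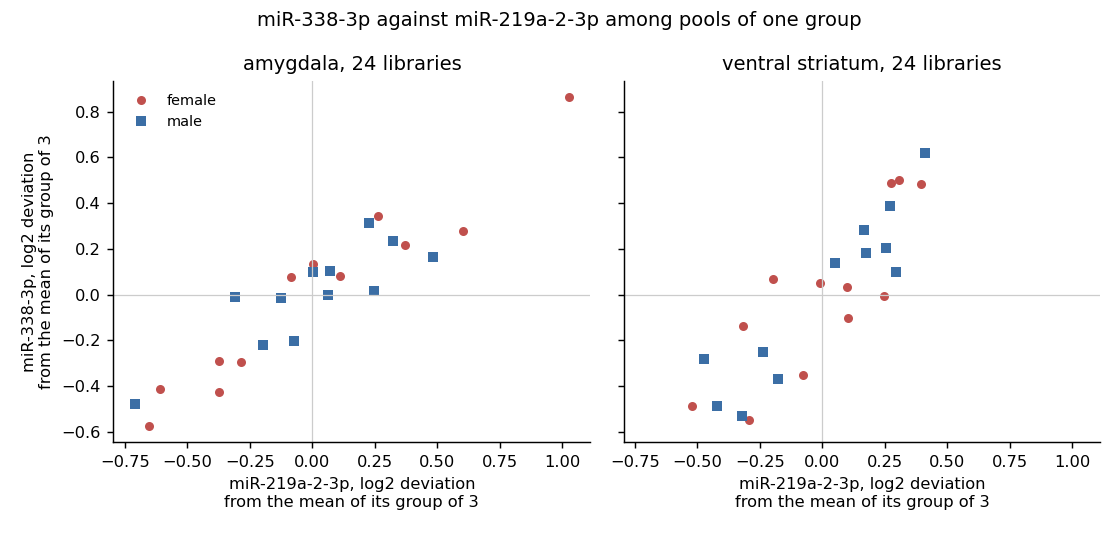
Deviations of miR-219a-2-3p and miR-338-3p from their group means in log2(RPM + 1), one point per library, in the amygdala (r = 0.93) and the ventral striatum (r = 0.88). The highest point of the amygdala, a female pool, lies above its group mean in both miRNAs.

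The spread of the members was set beside that of names of similar abundance. The pooled SD within groups was 0.41 for miR-338-3p on the log2 scale, where the median of 23 names within 1 log2 unit of its level was 0.24, and 0.43 for miR-219a-2-3p, where the median of 43 such names was 0.25. Both were below the 95th percentile of those names (0.50 and 0.53), and the difference in spread was not tested. Between the regions the members were compared as well. For the 24 pairs of an amygdala and a ventral striatum library with consecutive numbers in the labels, the deviations of the 7 members correlated with r from −0.01 to 0.25 (permutation tests, smallest adjusted p = 0.833). Whether consecutive numbers mark pools of the same rats is not given in the sources used here.

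Of the 5 names most like each leading member, 4 were the same for both. Of 303 mature names with a mean of at least 10 RPM, the 5 most correlated with miR-219a-2-3p over 48 libraries were miR-93-5p (r = 0.87), miR-181b-5p (0.87), miR-219b (0.83), miR-181a-5p (0.80) and miR-21-5p (0.78). For miR-338-3p they were miR-93-5p (r = 0.85), miR-34a-5p (0.83), miR-181b-5p (0.83), miR-219b (0.81) and miR-21-5p (0.80). The median r of all these names was −0.10 and −0.08, and the 95th percentile 0.43 and 0.41. Close covariation was thus not particular to the members. In the ventral striatum miR-219a-2-3p correlated at 0.95 with miR-181b-5p and at 0.90 with miR-93-5p, beside 0.88 with miR-338-3p. The same values in the amygdala were 0.89, 0.89 and 0.93. miR-93-5p had means of 483 RPM in the amygdala and 582 RPM in the ventral striatum. It is shown because it led both lists, and its seed, AAAGUGC, is that of miR-17-5p and of 3 other mature names and differs from the seeds of the members.
miR-93-5p: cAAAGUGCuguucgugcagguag

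At the other end, chosen after the values were seen, miR-219a-2-3p correlated with miR-29a-3p at −0.73, with the neuronal miR-124-3p at −0.72 and with miR-212-3p at −0.71. miR-338-3p did so with miR-128-3p at −0.74, with miR-218a-5p at −0.72 and with miR-212-3p at −0.68. These are correlations over 48 libraries that share their scaling, and are given as descriptions.

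Markers of neurons ran against the members. The summed level of miR-124-3p, miR-128-3p, miR-129-5p and miR-132-3p was 6931 to 14012 RPM in the amygdala and 6534 to 16365 RPM in the ventral striatum. Its deviations correlated with those of miR-338-3p at r = −0.61 in the amygdala (rho −0.64, r = −0.54 without 2 libraries, permutation p = 0.0016, adjusted p = 0.0064 over 12 relations). In the ventral striatum r was −0.85 (rho −0.85, r = −0.81 without 2 libraries, permutation p = 1e-05, adjusted p = 6e-05). With median-ratio rescaling the values were −0.53 and −0.85. Pools with more of the oligodendrocyte miRNAs than their group thus had less of the neuronal ones, as shares of a common total. The summed list of 13 other lineage miRNAs, described next, also ran against miR-338-3p in the ventral striatum, but most of that sum was miR-9a-5p. Other lists (microglia and leukocytes, endothelial cells, red blood cells and, in the ventral striatum, choroid plexus and ependymal cells) gave adjusted p-values of at least 0.0775.

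A list of 13 other miRNAs with reported roles in the oligodendrocyte lineage was compared in the same way. Between the regions 3 of the 13 were higher in the ventral striatum, namely miR-138-5p (log2 difference 0.25), miR-19b-3p (0.29) and miR-145-5p (0.26), and 2 were lower, miR-23a-3p (−0.40) and miR-27a-3p (−0.37), by limma at an adjusted p under 0.05. With 21.5% of all names higher and 8.74% lower, these counts are near the background. The median log2 difference of the list was −0.04. miR-23a is known to act on lamin B1 in oligodendrocytes, and miR-138 acts in early differentiation. None of the 13 passed the adjusted threshold in any of the 8 treatment comparisons. Taken singly, their deviations correlated with those of miR-338-3p in both directions, from r = −0.68 (miR-212-3p) to 0.44 (miR-19b-3p) over 48 libraries. The sum therefore does not stand for each name. The summed level of the list, most of which was miR-9a-5p, correlated with miR-338-3p at −0.43 in the amygdala (rho −0.35, permutation p = 0.0389, adjusted p = 0.0778, r = −0.18 without 2 libraries) and at −0.81 in the ventral striatum (rho −0.81, permutation p = 1e-05, adjusted p = 6e-05, r = −0.79 without 2 libraries).

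Other cell types were compared between the regions beside the members. Of the neuronal names miR-129-5p was higher in the ventral striatum (0.26) and miR-128-3p lower (−0.41), and the other 2 of 4 did not pass. The choroid plexus names miR-204-5p (−1.13) and miR-211-5p (−0.65) were both lower in the ventral striatum. None of the 3 ependymal, 2 endothelial, 2 red blood cell and 3 tested microglial and leukocyte names passed, and miR-223-3p, a marker of leukocytes, was at 0 RPM in 40 libraries. The part of these cell types in the region difference of the members was not tested.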

How the data were processed

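Region, sex, prenatal exposure and housing of the 48 libraries were taken from the labels. Per the study's methods, the authors size-selected small RNA, trimmed bases of low quality, aligned the reads to Rn5 with Bowtie and counted them in Partek Flow against miRBase. The deposited table holds a normalized signal per name and library, described as RPM. The sum was 1000000 for the mature and again for the precursor names of each library, so both scales were kept apart.

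The smallest step in a library was taken as the worth of 1 read. Among low values (up to 50 reads), whole numbers of reads within 0.02 made up 92.5% to 99.6% on the mature scale and 85.2% to 91.5% on the precursor scale, and no count test was used. Lines sharing a name (122 lines, 56 names) were summed. A floor of 3 reads covers counting error only.

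Names above 0 in at least 6 libraries of a region (12 of 48 for the regions) were fitted on log2(RPM + 1), a scale that understates changes of low names, with limma 3.58.1 (R 4.3.3, eBayes with trend) in 8 cells of sex and treatment, or 16 with region. All limma p-values are two-sided, with Benjamini-Hochberg adjustment over every name of the fit. Permutation tests and correlations used Python 3.11.15, numpy 2.4.6, pandas 2.3.3 and scipy 1.17.1, and figures matplotlib 3.10.9. The fits were checked on simulated data.

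The members and lists were chosen with earlier results of these data known. Names given in the text were the members, other names of the miR-219, miR-338 and miR-3065 stems, the list of 13 other oligodendrocyte-lineage miRNAs, the cell type markers, and the 5 mature names most correlated with miR-219a-2-3p and with miR-338-3p.

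As alternatives, the pseudocount was 0.1 or 10, low names were all kept or held to a mean of 10 RPM or more, and values were rescaled by median-ratio size factors. Further ones were separate fits of mature and precursor names, no moderation on log2 or unlogged values, the replicate number or consecutive library numbers as a block, a fit of the 12 libraries compared, saline non-enriched libraries alone, and each library left out. Leaving out the 13 amygdala libraries above every ventral striatum library in miR-204-5p plus miR-211-5p, rescaling without 13 choroid plexus and ependymal names, the correlations between regions and with cell type sums, and the comparison of spreads were added after the values were seen.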

Additional observations from a re-analysis of the deposited data

Results flagged for a closer look

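Single libraries stood apart from their group in 9 of 56 groups of 6 libraries (7 names, 8 groups of region and treatment) by the 95% limit of Dixon's test, which chance passes in about 1 group in 20. Of these, 7 came from a single library, ethanol enriched amygdala female replicate 3, which was the highest of its group for all 7 names: 137.833 RPM for miR-219a-5p (next library 54.9), 1996.44 RPM for miR-219a-2-3p (1068), 13317.4 RPM for miR-338-3p (5996) and 523.561 RPM for miR-338-5p (278). On the precursor scale it had 2321.18 RPM for mir-219a-2 (next library 1082), 314.004 RPM for mir-219b (146) and 12219.2 RPM for mir-338 (5453). The names share their reads or vary together, so this is 1 library rather than 7 results, and its sum of miR-204-5p and miR-211-5p was 36547 RPM. The other flagged library was saline non-enriched ventral striatum male replicate 1, the lowest of its group with 5132.67 RPM for miR-338-3p (next library 8270) and 4557.00 RPM for mir-338 (7376).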

How the results depend on the processing

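Of the region calls, miR-219a-2-3p, mir-219a-2, mir-219b, miR-338-3p and mir-338 held under every alternative that kept all treatment groups, and no call of a member was lost or reversed by leaving out any 1 of the 48 libraries (6 members passed each time). The number of members passing was 6 with the replicate block, 6 with consecutive numbers as a block, 5 with median-ratio rescaling, on unlogged RPM and without the 13 amygdala libraries rich in choroid plexus miRNAs, and 1 in saline non-enriched libraries alone, where fewer libraries enter. In the main fit 6 members passed, beside 21.5% of all names higher and 8.74% lower. For the alternatives no such share is given here, so their counts are descriptions. With the replicate block miR-219a-2-3p differed between regions by 0.59 (adjusted p = 4.75e-04 by limma). Replicate numbers did not pair the libraries: same-numbered libraries correlated over 0.1 in 12 of 36 pairs in the amygdala and 16 of 36 in the ventral striatum, and 6 and 10 of 24 libraries correlated best with their own number. Each replicate block lay within a single sex, so the fit with this block does not estimate the difference between the sexes and was not used for it.

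No treatment or sex contrast had a member at an adjusted p under 0.05 under any alternative, with the replicate block counted for treatment contrasts only. Directions of values that had not passed did change. Without the 13 libraries the amygdala ethanol effect in non-enriched rats was −0.030 for miR-219a-5p, −0.057 for miR-338-3p and −0.14 for miR-338-5p, that in enriched rats −0.48 for miR-338-5p, and the sex difference −0.13 for miR-219a-2-3p and −0.054 for miR-219a-5p. These fits held 11 libraries with 3 residual degrees of freedom, and 2 members (3.74% of all names) had an unadjusted p under 0.05 for ethanol in enriched rats. The sex difference of miR-219a-2-3p in the ventral striatum was −0.0025 with median-ratio rescaling and −5.63 RPM on unlogged values. The cause of these changes was not tested.

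Leaving out 1 library turned small differences. In the amygdala the ranges were −0.36 to 0.058 (miR-219a-2-3p), −0.36 to 0.0021 (miR-338-3p) and −0.20 to 0.19 (miR-338-5p) for ethanol in enriched rats, −0.031 to 0.27 (miR-219a-2-3p) and −0.10 to 0.19 (miR-338-5p) for enrichment after saline, and −0.32 to 0.044 (miR-338-3p) and −0.34 to 0.048 (miR-338-5p) for enrichment after ethanol. In the ventral striatum they were −0.010 to 0.24 (miR-338-3p) for ethanol in non-enriched rats, −0.0041 to 0.48 (miR-219a-5p) for ethanol in enriched rats, −0.063 to 0.42 (miR-219a-5p) and −0.13 to 0.16 (miR-338-3p) for enrichment after saline, −0.068 to 0.14 (miR-219a-2-3p), −0.086 to 0.27 (miR-219a-5p) and −0.078 to 0.22 (miR-338-5p) for enrichment after ethanol, and −0.045 to 0.079 (miR-219a-2-3p) and −0.067 to 0.094 (miR-338-5p) for sex. Leaving out 1 library also moved the number of members at an unadjusted p under 0.05, none of which passed adjustment. Without ethanol enriched female replicate 1 of the ventral striatum it was 4 for ethanol averaged over housing (4.39% of all names) and 2 for ethanol in enriched rats (3.54%), and without ethanol enriched male replicate 2 it was 1 for ethanol averaged over housing (3.54%). Without amygdala ethanol enriched female replicate 1 it was 5 for sex (7.8%), and without female replicate 3 of that group 2 for enrichment after ethanol (4.18%). Depth limits miR-219a-5p most, with 11 reads in its shallowest library.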

Other observations

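Levels of the members were compared with sequencing depth. All 14 correlations of a member with the number of mature reads (deviations from group means, 7 names and both regions) were positive. The highest was r = 0.49 for miR-219a-5p in the amygdala (permutation p = 0.0145), followed by the ventral striatum values of miR-219a-5p (r = 0.40, permutation p = 0.0507), miR-338-3p (r = 0.40, permutation p = 0.0535) and mir-338 (r = 0.39, permutation p = 0.0584). The smallest adjusted p was 0.203, so none passed.

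The first principal component of the other 303 mature names held 25.2% (amygdala) and 28.0% (ventral striatum) of the variance within groups. The mature members correlated with it at 0.36 to 0.58 (amygdala) and 0.32 to 0.77 (ventral striatum), where the median size of the correlation over all names was 0.44 and 0.47. miR-219a-5p in the ventral striatum had the highest of these values and ranked 40 of 307 names.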
